A study of Mus musculus with 6 samples.

Results

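Imprinted growth genes are expressed from the copy inherited from only 1 parent, and many of them promote or restrain growth and differentiation of the embryo and of progenitor cells. The members described here are the ligand Dlk1, the growth factor gene Igf2, the noncoding RNAs H19 and Meg3, the cell cycle inhibitor Cdkn1c, the regulators Plagl1, Ndn and Peg3, and Mest and Sgce. They were taken from the deposited gene table by symbol, and 8 of the 10 were among its 13283 genes. Meg3 and Peg3 were not analysed here. The list was chosen by what the control and knockout libraries had already shown for Dlk1 and other members, so the difference of each member between the groups is given as a description with no test. The intervals given with the members are adjusted neither for that choice nor for the number of genes, and are not to be read as tests.

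The study asked what the loss of MICT1, a microprotein of brown fat, does to brown adipocytes. Cas9-carrying BAT cells, an immortalized line of brown preadipocytes from the mouse, had been put through adipocyte differentiation, and on day 6 all 6 cultures received forskolin at 10 µM for 6 h to drive cAMP production by adenylyl cyclase. The 3 control libraries, with genotype WT in the labels, came from cells transduced with a scrambled guide and are called Scr. The 3 MICT1 KO libraries, with genotype MICT1-CRISPR KO in the labels, came from knockout pools made with 2 guides, so they are mixed populations of edited cells rather than clones, and which guide gave which library is not stated in the sources used here. No library without forskolin or before differentiation was compared. Since MICT1 RNA was not analysed here, the targeted gene could not serve as a check of the labels.

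Genomic imprinting is set by DNA methylation that the egg or the sperm lays down at control regions, and it is kept in the dividing embryo by DNA methyltransferases and zinc-finger proteins that recognise the methylated copy. Imprinted genes lie in clusters, and within a cluster the genes expressed from the father's copy and those expressed from the mother's copy often have opposing effects on growth. In fat, Dlk1 is best known as Pref-1, a surface protein of preadipocytes whose shed outer part restrains their differentiation. The libraries do not tell the parental copies apart, so every level below is the sum over both.

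The sequences that bear on Dlk1, Mest and H19 come from RefSeq on GRCm38.p6, and motifs were searched on both strands in the 250 bases before each RefSeq start site. The table of promoters held 5 of the 8 members (Dlk1, Mest, Igf2, Ndn and Plagl1). Dlk1 is shown because all cultures were treated to raise cAMP, and the bases before its only start site in that table, at chr12:109452573-109452822 on the plus strand, hold, in capitals, 1 copy of TGACG, the core of the cAMP response element, beginning at position -106 from the start.
Dlk1 upstream: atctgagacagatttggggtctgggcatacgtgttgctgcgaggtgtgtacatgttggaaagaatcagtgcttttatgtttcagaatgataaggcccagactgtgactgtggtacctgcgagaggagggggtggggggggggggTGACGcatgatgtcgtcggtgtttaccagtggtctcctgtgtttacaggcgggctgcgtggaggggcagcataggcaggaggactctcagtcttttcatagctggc
Mest is shown for contrast, with none of the motifs in the bases before 1 of its start sites, chr6:30737800-30738049 on the plus strand.
Mest upstream: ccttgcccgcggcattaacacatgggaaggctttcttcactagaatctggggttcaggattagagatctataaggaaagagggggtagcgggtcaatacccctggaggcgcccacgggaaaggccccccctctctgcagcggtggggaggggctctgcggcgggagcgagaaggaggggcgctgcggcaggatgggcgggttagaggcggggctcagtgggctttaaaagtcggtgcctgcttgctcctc
Of 32851 mouse promoters of this length, 17.8% held TGACG, 1.55% held the full element TGACGTCA (which contains TGACG) and 0.889% held GGGGCCCC, the site of the PLAGL1 protein. TGACG was also found before 1 of the start sites of Igf2, at position -189 in chr7:142658805-142659054. Neither the full element nor GGGGCCCC was found in any of the members' windows. The Dlk1 window held 8 CpG dinucleotides and the Mest window 14, against a median of 6 over all promoters.

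The H19 transcript also contains a microRNA in 1 of its exons, shown here because H19 was the most abundant member per exon length, by the lengths used here. The seed, bases 2 to 8, is in capitals, and the mature forms lie on the minus strand at chr7:142577112-142577133 (5p) and chr7:142577078-142577099 (3p).
mmu-miR-675-5p: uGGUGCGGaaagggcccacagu
mmu-miR-675-3p: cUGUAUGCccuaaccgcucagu
The Mest gene hosts a further microRNA in an intron, at chr6:30741314-30741336 on the plus strand.
mmu-miR-335-5p: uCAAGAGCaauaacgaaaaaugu
The 3 seeds differ from one another. Mature microRNAs were not measured in these libraries.

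The table gives, for each gene and library, reads divided by 1 scaling factor per library, called normalized reads below. The libraries held 15445780 to 17925535 reads in listed genes, and their scaling factors ran from 0.949 to 1.08. Libraries of the same group correlated at 0.987 to 0.99 across genes on the log2 scale, and libraries of different groups at 0.929 to 0.94. By limma-trend on log2(value + 1), with Benjamini-Hochberg adjustment over 12507 genes, 56.9% of the genes differed between MICT1 KO and Scr at an adjusted p under 0.05, 28.3% lower and 28.5% higher. The groups did not overlap for 62% of the genes. A log2 fold change below is MICT1 KO minus Scr on the same scale, which understates the change of low genes. Replicates were separate samples of 1 cell line, so their spread covers that line only. Whether each library came from its own transduction is not stated in the sources used here. Differences between separately made cell populations therefore cannot be told apart from an effect of the knockout.

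Of 9 listed adipocyte markers, 8 were in the table and all 8 fell in MICT1 KO, and their summed level went from 122627 to 145763 normalized reads in Scr to 14488.4 to 20945.5 in MICT1 KO. All 5 genes of dividing cells rose, with sums of 22900 to 25152 in Scr and 39294 to 43526 in MICT1 KO. Of 7 listed progenitor markers, 5 were in the table and 3 could be tested. Ly6a and Pdgfrb rose and Pdgfra fell, though the groups overlapped for Pdgfra (adjusted p = 0.0347 by limma-trend). The sums over the 5 were 3692 to 4289 in Scr and 4657 to 4826 in MICT1 KO. Sums of the markers of muscle (44.8 to 51.0 and 48.5 to 77.2), macrophages (81.4 to 133 and 100.5 to 142) and endothelium (5.93 to 12.1 and 25.9 to 33.4) stayed small, with 1 of 6, 2 of 5 and 1 of 4 of those markers in the table, and only the endothelial marker Cdh5 passed the test, with a rise. The adipocyte and dividing-cell markers moved along the same contrast as the members' differences below, and their part in these was not tested. In bulk libraries, fewer cells of a type and less RNA per cell cannot be told apart.

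Dlk1 encodes a transmembrane ligand related to the Notch ligands. The gene lies on chromosome 12, from 109452485 to 109463336 on the plus strand, and is expressed from the paternal copy. The bases printed above lie within that span, before a start site inside it, and the outermost start was not searched. Scr libraries 1 to 3 had 727, 661 and 674 normalized reads of Dlk1, and MICT1 KO libraries 1 to 3 had 58.2, 44.3 and 89.1. The highest MICT1 KO library was far below the lowest Scr library. The means were 687 ± 35.0 (SD, n = 3) and 63.9 ± 23.0, which was 10.8-fold lower in MICT1 KO, with a log2 fold change of -3.47 ± 0.19 (SE; 95% interval -3.85 to -3.08). Ordered from the most negative log2 fold change, Dlk1 ranked 61 of all 12507 genes tested. The MICT1 KO values rest on 61, 42 and 86 reads, and the Scr values on 662 to 735.

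Cdkn1c encodes p57, which inhibits the kinases that drive the cell cycle. The gene lies on chromosome 7, from 143458339 to 143461059 on the minus strand, and is expressed from the maternal copy. Its levels were 292, 322 and 314 normalized reads in Scr and 20.02, 13.7 and 32.1 in MICT1 KO. All MICT1 KO libraries again lay far below all Scr libraries. The means were 309 ± 15.6 and 22.0 ± 9.37 (SD, n = 3 each), 14.1-fold lower in MICT1 KO, and the log2 fold change of -3.84 ± 0.26 (SE; 95% interval -4.37 to -3.30) was the most negative of the members. Only 13 to 31 reads stand behind each MICT1 KO value. An antisense transcript, Gm44732, overlaps 625 bases (30.7%) of the exons of Cdkn1c, and although the methods describe stranded libraries, whether reads were assigned by strand is not stated in the sources used here.

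H19 is a long noncoding RNA that is abundant in the embryo and largely silent after birth, and it carries the miR-675 sequences printed above. It lies on chromosome 7, from 142575530 to 142578146 on the minus strand, and is expressed from the maternal copy. It had 436, 404 and 463 normalized reads in Scr and 1195, 1194 and 1081 in MICT1 KO. Here the order was the opposite of that of Dlk1 and Cdkn1c, with every MICT1 KO library above every Scr library. The means were 434 ± 29.5 and 1156 ± 65.3 (n = 3 each), 2.66-fold higher in MICT1 KO, with a log2 fold change of 1.41 ± 0.085 (SE; 95% interval 1.23 to 1.59). Ordered from the most positive log2 fold change, H19 ranked 570 of all genes tested.

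Igf2, which encodes insulin-like growth factor 2, shares a control region with H19 and its start site lies 88.7 kb from that of H19. Few of its reads were found in either group, the Scr libraries holding 11, 8 and 4 and the MICT1 KO libraries 18, 18 and 2. In normalized reads this was 10.9, 7.42 and 4.07 against 17.2, 18.97 and 2.07, and the groups overlapped. Igf2 met the low-value filter through 1 Scr and 2 MICT1 KO libraries. The log2 fold change was 0.38 ± 0.72 (SE; 95% interval -1.11 to 1.87), an interval that takes in both lower and higher levels. Igf2 lies on chromosome 7, from 142650768 to 142666816 on the minus strand, and the transcript Gm49394 covers 62.8% of its exons on the same strand, so its few reads may belong to either.

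Ndn encodes necdin, a protein that restrains proliferation and is known best in neurons. It lies on chromosome 7, from 62348277 to 62349928 on the plus strand, and is expressed from the paternal copy. It had 121, 140.0 and 95.7 normalized reads in Scr and 417, 349.8 and 316 in MICT1 KO. No MICT1 KO library came near the Scr range. The means of 119 ± 22.2 and 361 ± 51.1 (n = 3 each) correspond to 3.04-fold more in MICT1 KO and a log2 fold change of 1.60 ± 0.16 (SE; 95% interval 1.27 to 1.94), the most positive of the members. With H19 it was 1 of 2 members at least 2-fold higher in MICT1 KO, as Dlk1 and Cdkn1c were the 2 that were at least 2-fold lower.

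Plagl1, also called Zac1, encodes a zinc-finger transcription factor that regulates other imprinted genes. It lies on chromosome 10, from 13090832 to 13131694 on the plus strand, and is expressed from the paternal copy. Its levels of 1009, 1059 and 1016 normalized reads in Scr compared with 850.4, 819.7 and 645 in MICT1 KO. The MICT1 KO libraries spread more widely than the Scr libraries but stayed below them. The means were 1028 ± 27.0 and 772 ± 111 (n = 3 each), 1.33-fold lower, with a log2 fold change of -0.42 ± 0.091 (SE).

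Mest, a member of the alpha/beta hydrolase fold family whose expression has been linked to fat cell size, had 89.5, 84.5 and 50.5 normalized reads in Scr and 46.0, 36.0 and 31.1 in MICT1 KO. The ranges lay close to each other, with the lowest Scr library only just above the highest MICT1 KO library. The means were 74.8 ± 21.2 and 37.7 ± 7.60 (n = 3 each), 1.98-fold lower, and the log2 fold change was -0.94 ± 0.29 (SE; 95% interval -1.54 to -0.348). Mest lies on chromosome 6, from 30733506 to 30748466 on the plus strand, and is expressed from the paternal copy. On the opposite strand, Copg2 overlaps 912 bases (23.1%) of the exons of Mest. The reads of Mest were whole numbers in only 1 of the 6 libraries, within 0.05, while those of the other members were whole in all 6, so the Mest values are estimates rather than whole reads.

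Sgce, which encodes epsilon-sarcoglycan of the muscle membrane complex, differed least of the abundant members. It had 689, 648 and 631.9 normalized reads in Scr and 538, 563 and 631.3 in MICT1 KO. The highest MICT1 KO library lay just below the lowest Scr library. The means were 656 ± 29.7 and 577 ± 48.5 (n = 3 each), 1.14-fold lower, with a log2 fold change of -0.19 ± 0.090 (SE; 95% interval -0.374 to -0.00116). Sgce lies on chromosome 6, from 4674350 to 4747204 on the minus strand, and is expressed from the paternal copy.

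**Figure D1:**
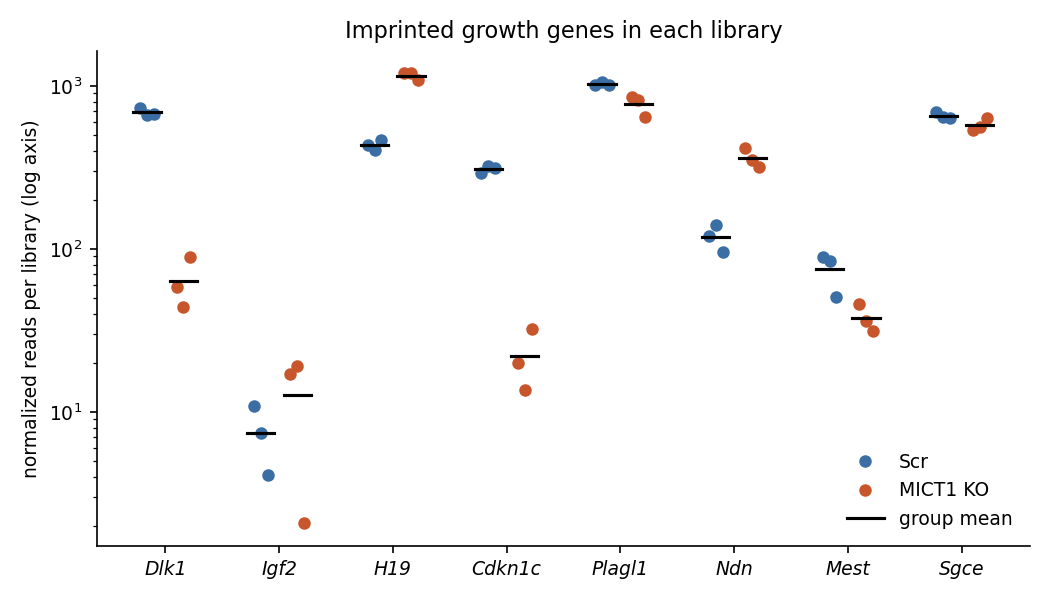
Normalized reads of the 8 imprinted growth genes in each library, on a log axis. Blue points are the 3 Scr libraries, orange points the 3 MICT1 KO libraries and black lines the group means. Dlk1 and Cdkn1c lie more than 10-fold lower in MICT1 KO, H19 and Ndn lie higher, and only Igf2 overlaps between the groups.

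Of the 8 members, 7 had groups that did not overlap, against 62% of all genes. That share is given only as background, because the members were chosen with this contrast in view. The log2 fold change was negative for 5 (Dlk1, Cdkn1c, Plagl1, Mest and Sgce) and positive for 3 (H19, Ndn and Igf2). The median log2 fold change of the 8 was -0.305, with a range of -3.84 to 1.60, and the median over all genes tested was -0.00531. Without MICT1 KO replicate 1 or 2, where Igf2 no longer met the filter, the members' median was -0.498 or -0.472.

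The members spanned a wide range of abundance per exon length, given as RPKM, the reads scaled by exon length and by the total of the library. In Scr, the levels were, from the highest, H19 10.8 ± 0.82 RPKM (SD, n = 3), Cdkn1c 9.26 ± 0.33, Plagl1 8.03 ± 0.112, Dlk1 7.43 ± 0.494, Sgce 3.78 ± 0.22, Ndn 1.96 ± 0.355, Mest 1.16 ± 0.333 and Igf2 0.0798 ± 0.0374. The ranges of Plagl1 and Dlk1 overlapped, and those of the other neighbours in that order did not. In MICT1 KO, H19 stayed first at 28.8 ± 1.53 RPKM. It was followed by Plagl1 at 6.05 ± 0.844 and Ndn at 5.98 ± 0.81, whose ranges overlapped, and by Sgce at 3.33 ± 0.297. Dlk1 (0.692 ± 0.251 RPKM), Cdkn1c (0.66 ± 0.284) and Mest (0.586 ± 0.114) had overlapping ranges, and Igf2 was last at 0.136 ± 0.0991. By these lengths, Dlk1 and Cdkn1c moved from the upper ranks to a level near that of Mest, and Ndn moved up to that of Plagl1. Other lengths could shift these positions, while the fold difference of a gene between the groups does not depend on its length.

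**Figure D2:**
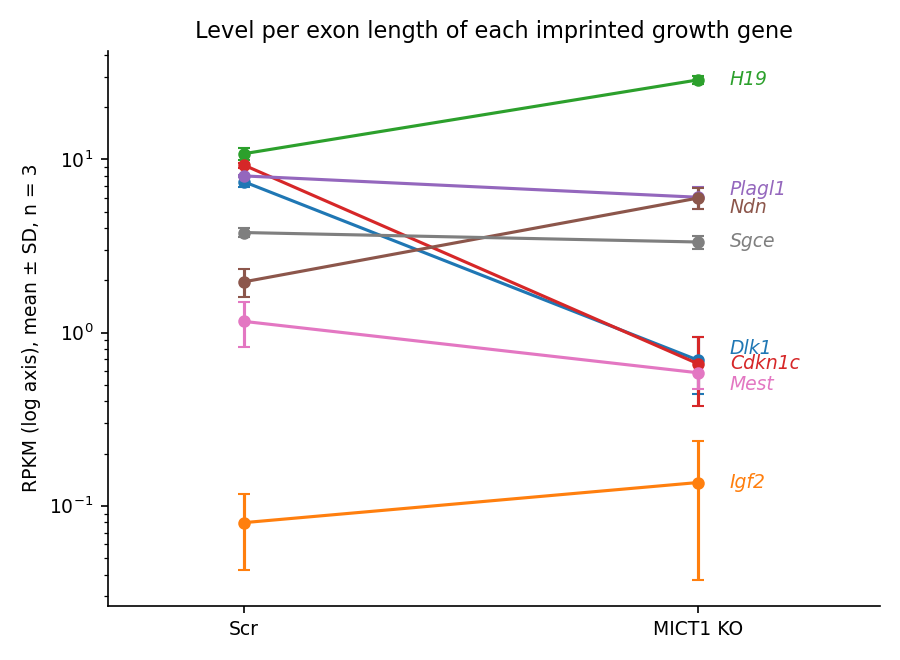
Mean RPKM of each imprinted growth gene in Scr and MICT1 KO, on a log axis, with bars of 1 SD over 3 libraries. Lines join the means of the same gene. Dlk1 and Cdkn1c lie in MICT1 KO at a level near that of Mest, whereas H19 stays the highest and Ndn reaches the level of Plagl1. The order between genes depends on the exon lengths used.

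Taken over all clusters, the genes around the members, listed with earlier results of these data known, went in both directions. They were listed as known imprinted genes, and whether each is imprinted in these cells was not measured. Of 37 listed imprinted genes that share a cluster with a member, 21 were in the table and tested, and by limma-trend 7 fell, 6 rose and 8 did not pass an adjusted p of 0.05. Their median log2 fold change was -0.141, and the shares of all genes that fell and rose were 28.3% and 28.5%. The table lists no level for the other 16, which were not analysed here.

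In the Dlk1 cluster on chromosome 12, 2 further paternally expressed genes fell. Rtl1, a retrotransposon-derived gene that starts 148 kb from Dlk1, had 39.6, 37.4 and 61.6 normalized reads in Scr and 12.4, 12.6 and 16.6 in MICT1 KO (log2 fold change -1.64 ± 0.37, SE; adjusted p = 0.000772). Dio3, which encodes the deiodinase that inactivates thyroid hormone and starts 826 kb from Dlk1, fell from 163 ± 19.9 to 45.8 ± 13.5 (SD; log2 fold change -1.84, adjusted p = 8.58e-07). Begain, on the other side of Dlk1, rose from 12.8 ± 5.71 to 38.0 ± 14.9 normalized reads (log2 fold change 1.51, adjusted p = 0.00625), but without MICT1 KO replicate 2 the rise was 1.24 with an adjusted p of 0.0531. Rian, a maternally expressed noncoding RNA of the cluster, was near the detection limit at 10.2 ± 4.04 and 14.1 ± 2.46 and did not pass (adjusted p = 0.439), with groups that overlapped.

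In the Sgce cluster, Peg10 differed far more than Sgce although their start sites lie 99 bases apart. In Scr, Peg10, a retrotransposon-derived gene that is paternally expressed, was by far the most abundant imprinted gene listed, with 40694, 38540 and 38382 normalized reads. In MICT1 KO it was not, and the listed genes Gnas and Dcn were higher, at means of 18517 and 9707. Peg10 had 4286, 4156 and 4099 in MICT1 KO, 9.38-fold lower, with a log2 fold change of -3.23 ± 0.0512 (SE; adjusted p = 3.69e-21 by limma-trend). The replicates of each group were close to each other and the groups were far apart. Of the neighbours, Asb4, an ankyrin repeat gene, rose from 16.1 to 80.9 (log2 fold change 2.27, adjusted p = 7.25e-06), the paraoxonase genes Pon2 and Pon3 rose by 0.59 and 0.42 on the log2 scale (adjusted p = 0.00087 and 0.00375), and Casd1 fell by 0.24 (adjusted p = 0.0197). Casd1 no longer passed without Scr replicate 2 (log2 fold change -0.19, adjusted p = 0.112) or MICT1 KO replicate 1 (-0.20, adjusted p = 0.0691).

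Copg2, which encodes a coat protein of transport vesicles and overlaps Mest, fell in MICT1 KO. It had 790.3 ± 70.4 normalized reads in Scr and 418 ± 46.3 in MICT1 KO (n = 3 each; log2 fold change -0.92 ± 0.0996, SE; adjusted p = 1.02e-07). The fall of Copg2 was close in size to the difference of Mest (-0.94), and without the strand setting the reads of the bases that both share cannot be told apart.

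In the Cdkn1c cluster, the antisense noncoding RNA Kcnq1ot1, which is expressed from the paternal copy, had 92.0, 56.5 and 54.9 normalized reads in Scr and 20.02, 45.3 and 33.2 in MICT1 KO. It fell by 1.06 on the log2 scale (adjusted p = 0.00872), and without Scr replicate 1 by 0.82 (adjusted p = 0.0727). Osbpl5, a lipid transfer protein gene, rose from 181 to 353 normalized reads (log2 fold change 0.94, adjusted p = 1.6e-05), and Cd81, a membrane protein gene used as a marker of progenitors of beige fat, rose by 0.29 (adjusted p = 0.000676). Nap1l4, Tssc4 and Ascl2 did not pass (log2 fold changes of -0.11, 0.0052 and -0.063, with adjusted p of 0.0928, 0.969 and 0.925). None of these neighbours had a log2 fold change as large as that of Cdkn1c (-3.84), and that difference between genes was not tested.

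The Ndn cluster showed a fall of Ube3a alone among the listed neighbours. Ube3a, a ubiquitin ligase gene whose imprinting is known from neurons, fell from 3077 ± 158 to 2186 ± 227 normalized reads (SD, n = 3; log2 fold change -0.50, adjusted p = 3.3e-06). Snrpn, Snurf, Mkrn3 and Peg12 had log2 fold changes of -0.29, -0.39, -0.23 and -0.14 and did not pass (adjusted p = 0.421, 0.272, 0.62 and 0.28). None of the 5 rose, while Ndn itself was 3.04-fold higher.

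**Figure D3:**
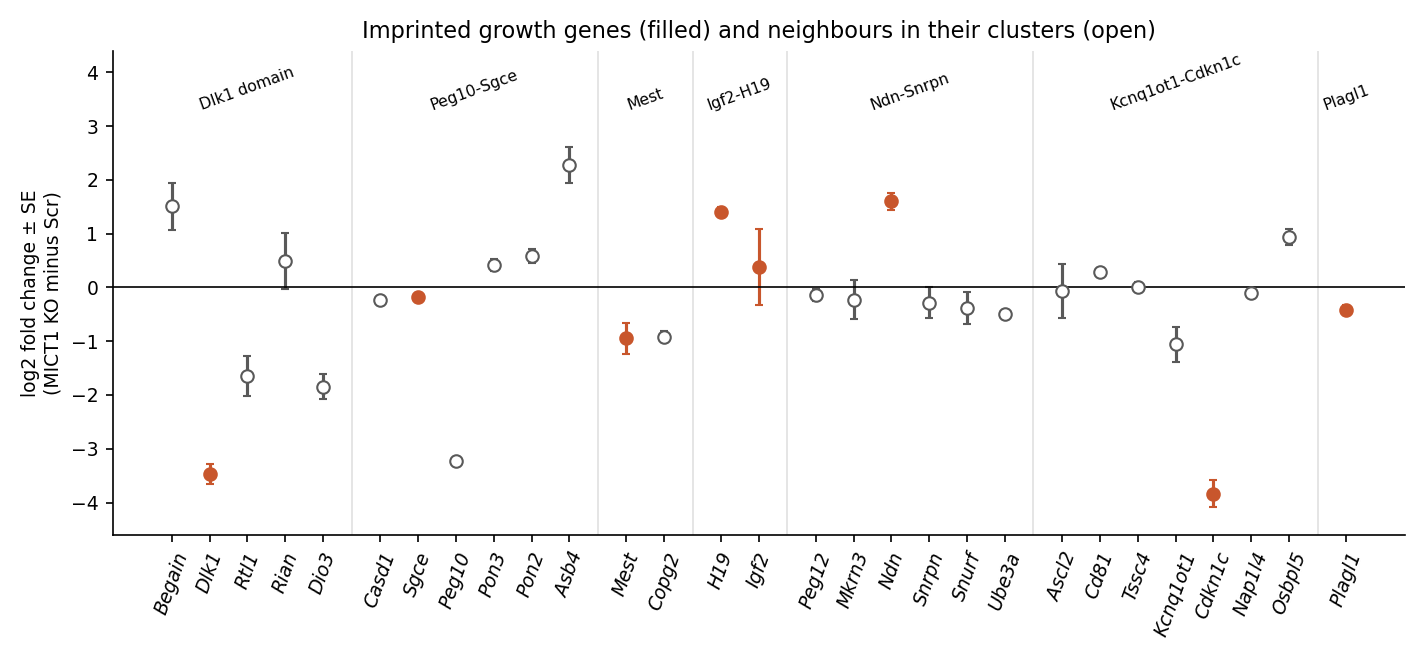
Log2 fold change of MICT1 KO against Scr with bars of 1 SE for each imprinted growth gene (filled) and for other imprinted genes of the same cluster (open), in order along the chromosome. Positions ascend from left to right, except in the Ndn cluster, where they descend. Dlk1, Peg10 and Cdkn1c lie below -3, and H19, Ndn, Asb4 and Begain lie above 1.

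Imprinted genes in other clusters, also listed with earlier results of these data known, showed no common direction. Of 27 listed, 20 were in the table and 19 were tested, of which 8 rose and 4 fell. The other 7 did not reach the threshold, and the median of the 19 log2 fold changes was 0.184. Dcn, which encodes the collagen-binding matrix protein decorin and is imprinted in the placenta, rose from 365 ± 75.3 to 9707 ± 133 normalized reads, 26.6-fold, with a log2 fold change of 4.75 ± 0.101 (SE; adjusted p = 5.87e-19). Ampd3, an AMP deaminase gene, rose from 148 to 703 (log2 fold change 2.24, adjusted p = 2.67e-12), Nap1l5 from 4.86 to 21.6 (2.07, adjusted p = 0.00403), and the growth inhibitor Grb10, an adaptor that dampens insulin and growth factor signals, from 115 to 215 (0.90, adjusted p = 3.61e-05). Nap1l5 met the low-value filter only through the 3 MICT1 KO libraries, in which it was higher, and it could not be fitted without any 1 of them. The largest falls were smaller. Peg13 fell by 0.83 and Herc3 by 0.81 on the log2 scale (adjusted p = 0.0011 and 3.23e-06). Mcts2 fell by 0.42 (adjusted p = 0.041) and Trappc9 by 0.34 (adjusted p = 0.0114), but the adjusted p of Mcts2 was between 0.0567 and 0.15 when each of 5 libraries was left out in turn (all but Scr replicate 3), and that of Trappc9 was 0.0698 without Scr replicate 2 and 0.0726 without MICT1 KO replicate 3. Together with the genes of the members' clusters, 25 of 40 tested imprinted genes beyond the members were called, 11 lower and 14 higher, beside 56.9% of all genes, 28.3% lower and 28.5% higher.

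The genes that establish and keep imprints were measured beside them, in a list that also held the Tet enzymes, which oxidise methylcytosine. Of 14 listed, 13 were tested, and 5 fell and 3 rose, a share close to the 56.9% of all genes that were called. Earlier results of these data were known when the list was made. The 5 that fell were the enzymes that oxidise methylcytosine (Tet1, Tet2 and Tet3) and the de novo methyltransferases Dnmt3a and Dnmt3b. Tet3 went from 3517 to 1229 normalized reads (log2 fold change -1.52, adjusted p = 3.85e-14), Dnmt3b from 217 to 80.8 (-1.46, adjusted p = 5.97e-06), and Dnmt3a from 949 to 475 (-1.0, adjusted p = 5.43e-09). The maintenance methyltransferase Dnmt1 had 6193 ± 16.2 in Scr and 6089.5 ± 281 in MICT1 KO and did not pass (log2 fold change -0.025, adjusted p = 0.705). Zfp57, a zinc-finger protein that binds methylated imprint control regions, rose from 69.6 to 125 (0.82, adjusted p = 0.00201), and its partner Trim28 by 0.25 (adjusted p = 0.000305). DNA methylation was not measured in these libraries.

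Genes that act with Dlk1 were also measured. Of 11 listed and tested, 8 rose and 2 fell, beside 28.5% and 28.3% of all genes. The list was drawn up with earlier results of these data known, so its counts and adjusted p values are no independent support. The rises numbered 6 to 8 when 1 library was left out and 7 with the replicate block, and 1 of the 8, the kinase gene Map2k2, had groups that overlapped (log2 fold change 0.15, adjusted p = 0.049). Adam17, the protease that sheds the outer part of Dlk1, fell from 1929 to 1559 normalized reads (log2 fold change -0.31, adjusted p = 0.000359), and the kinase Map2k1, which lies in the pathway downstream of Dlk1, fell by 0.23 (adjusted p = 0.00122). The matrix protein fibronectin (Fn1), to which shed Dlk1 binds, rose from 23247 to 87525 (log2 fold change 1.91, adjusted p = 1.1e-15). The homologue Dlk2 rose from 33.5 to 94.0 (1.45, adjusted p = 5.27e-05). Sox9, a transcription factor that Dlk1 is known to raise in preadipocytes, rose from 1297 to 1526 (0.24, adjusted p = 0.00988), and without Scr replicate 3 by 0.16 (adjusted p = 0.0722).

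Genes that act with Igf2 were measured at much higher levels than Igf2 itself. Of 11 listed and tested, 6 fell and 3 rose, beside 28.3% and 28.5% of all genes, and the rises numbered 2 with the replicate block and when any library but MICT1 KO replicate 1 was left out. This list too was drawn up with earlier results of these data known. The binding proteins Igfbp4 and Igfbp2, which hold the growth factors in the extracellular space, fell from 3423 to 590.0 normalized reads (log2 fold change -2.55, adjusted p = 2.13e-15) and from 1469 to 648 (-1.19, adjusted p = 4.13e-10). Igfbp6, which prefers Igf2, rose from 81.5 to 153 (0.89, adjusted p = 0.000402). The signalling receptor Igf1r rose from 770.3 to 1084 (0.50, adjusted p = 0.000233), the insulin receptor Insr fell by 0.97 (adjusted p = 6.38e-11), and Igf2r, which takes Igf2 up for breakdown and is itself imprinted, had a log2 fold change of 0.15 and did not pass (adjusted p = 0.0638).

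**Figure D4:**
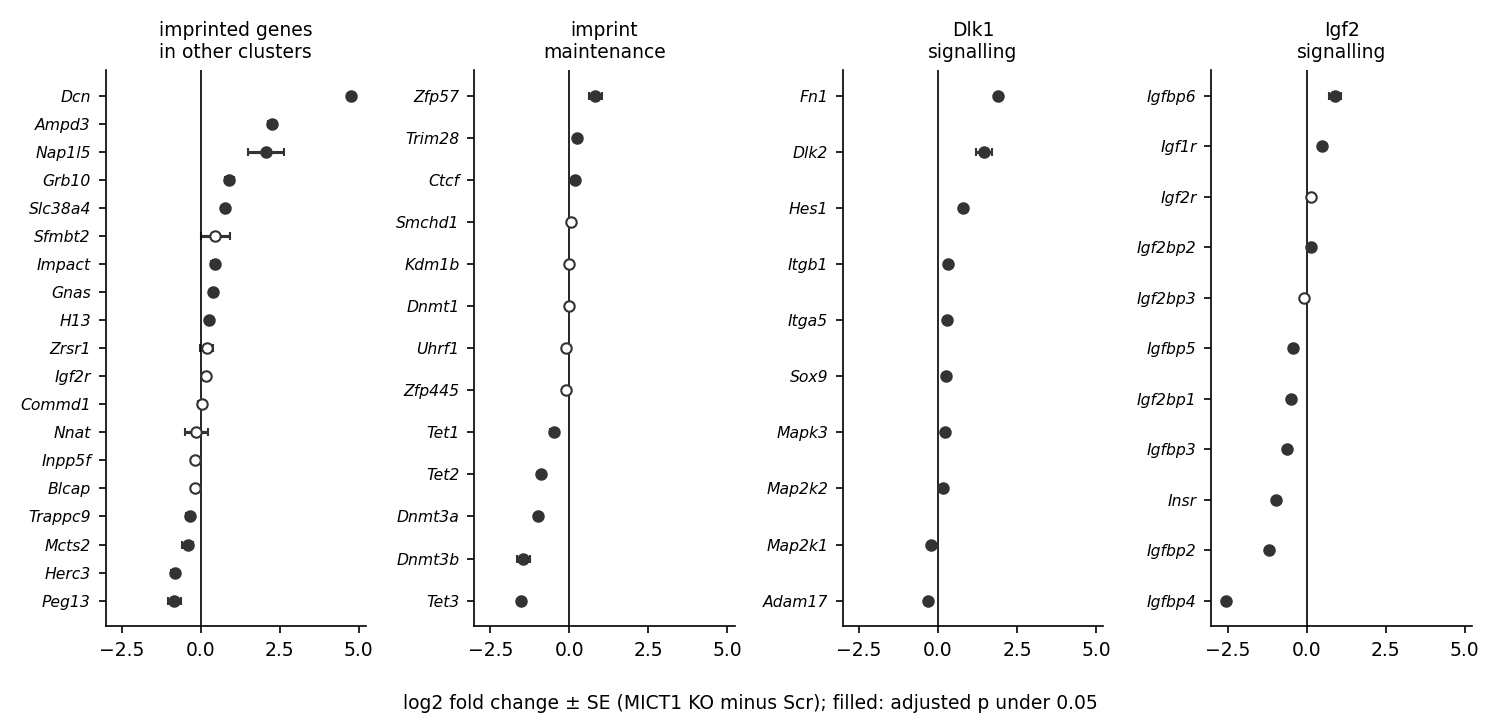
Log2 fold change of MICT1 KO against Scr, with bars of 1 SE, for imprinted genes in other clusters and for the genes of imprint maintenance (with the Tet enzymes), Dlk1 signalling and Igf2 signalling, in 4 panels. Filled points passed an adjusted p of 0.05 and open points did not. Dcn lies furthest to the right at 4.75 and Igfbp4 furthest to the left at -2.55.

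The genes whose levels over the 6 libraries were most like those of Dlk1 included genes of fat storage and of the matrix. The measure was the root mean square difference of centred log2(value + 1) over the 6 libraries, which is set mostly by the size of the difference between groups. The 5 nearest were Col15a1 (0.11 log2 units from Dlk1), Fabp4 (0.112), Plin4 (0.154), Slc25a34 (0.159) and Lipe (0.185), of 12507 genes tested. Fabp4 carries fatty acids, Plin4 coats lipid droplets, Lipe is the hormone-sensitive lipase and Col15a1 is a basement membrane collagen. Their log2 fold changes ran from -3.70 (Lipe) to -3.28 (Slc25a34), beside -3.47 for Dlk1.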

How the data were processed

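RNA from 6 cultures of differentiated brown adipocytes was sequenced, and the labels gave the group and the number of every library. Partek was used for alignment to mm10 per the methods, and the submitters' processing notes also name STAR and DESeq2 without a role. The methods give a stranded total RNA kit and the labels name only the provider that made the libraries. The counting model, its strand setting and the annotation are not given in the sources used here. The table the authors deposited holds a normalized signal per gene, read from the values as estimated reads divided by 1 size factor per library (88.7 to 90.2% of values under 20 came out as whole reads within 0.01). It is not a table of counts, so no count model was used.

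Genes that reached 10 in 3 or more libraries were fitted with limma-trend (limma 3.58.1, R 4.3.3) on log2(value + 1), MICT1 KO against Scr, over all 12507 genes, at a Benjamini-Hochberg adjusted p of 0.05. The functions were run on simulated data in which far fewer genes changed than were called here. That run checks the code and not the rate of false calls in these data. RPKM used the value sums of a library and, for each gene, the joined length of all its exons in GENCODE vM21. Positions and sequences are from RefSeq on GRCm38.p6.

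The members and gene lists were chosen with earlier results of these data known. Members therefore carry no test, and the tests of other listed genes are not independent of that choice. Other genes were named by rule: every listed imprinted gene of the members' clusters, the 4 largest rises and falls of imprinted genes elsewhere, the 2 largest rises and falls of each pathway list with Dnmt1, Zfp57, Adam17, Sox9, Igf1r and Igf2r, and the 5 genes most like Dlk1. Gnas, Dnmt3a, Tet1, Tet2, Map2k2 and Insr were added after their values were seen. From the pathway lists, 1 gene is not reported by name here. Alternatives were other pseudocounts, filters and scalings, limma-voom, a replicate block and leaving out each library.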

Additional observations from a re-analysis of the deposited data

How the results depend on the processing

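No member changed direction under any alternative that could be run, over pseudocounts of 0.5 and 5, no filter, a filter of 50, scaling by library total or upper quartile, limma-voom, a replicate block and leaving out each library. Igf2 did not meet the filter of 50, nor the main filter without Scr replicate 1 or MICT1 KO replicate 1 or 2, so it has no value there, and its log2 fold change was 0.0522 without Scr replicate 3 and 1.26 without MICT1 KO replicate 3. Leaving out a library, Dlk1 ran from -3.73 to -3.24 and Cdkn1c from -4.14 to -3.55, and the median log2 fold change of the members ran from -0.498 to -0.276. Among genes that are not members, the sign turned for Tssc4 (-0.109 to 0.0626) and Ascl2 (-0.503 to 0.4) without 1 library, and for Dnmt1 without 1 library (-0.048 to 0.0134) and with upper-quartile scaling (0.0103), none of them called. With upper-quartile scaling Mcts2 fell by 0.38 with an adjusted p of 0.0616, and Igf2r passed (0.188, adjusted p = 0.0251), as it did without MICT1 KO replicate 1 (adjusted p = 0.0183). The median log2 fold change of all genes was -0.00531, -0.00115 with library-total scaling and 0.0298 with upper-quartile scaling. Genes called overall were 7113, 7055 with the replicate block and 6340 to 6596 without 1 library, and no list's count moved by more than 1.5 times. The same-numbered samples deviated together at correlations of -0.0236, -0.0155 and 0.0637, so the numbers were not taken to pair them. The causes of these changes were not tested. Depth limits Igf2, at 2 to 18 reads, and the MICT1 KO values of Cdkn1c and Dlk1, at 13 to 86 reads.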
